A study of Homo sapiens with 12 samples.

Results

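The genes described here are *CASP6*, *CASP8*, *CASP9*, *CASP10*, *CFLAR*, *FADD*, *XIAP* and *MLKL*, 8 caspases, adaptors, inhibitors and effectors of the death receptor pathway. They were taken from the deposited gene count table by matching Ensembl identifiers to these symbols, and each symbol matched 1 of the 58288 genes in the table. All 8 passed the filter on low counts in every comparison. The 12 RNA-seq libraries, 3 for each of 4 groups, were made from the established line HL-60/S4, which derives from a promyelocytic leukemia. Promyelocytes were undifferentiated cells, and granulocytes were the same line after 4 days in 1 µM ATRA (all-trans retinoic acid, which drives these cells toward a granulocytic form). In each cell type, cells in calcium-supplemented medium received either 16 ng/mL TNF-α or its water vehicle for 2 h. Each library came from its own flask of this single line, so p-values measure the spread between flasks. The 2 cell types were grown as separate experiments, and cell type and experiment cannot be told apart.

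When a death ligand binds its receptor, the adaptor FADD recruits the initiator caspases CASP8 and CASP10, which then cleave one another and activate executioner caspases. The *CFLAR* product, c-FLIP, resembles CASP8 and joins the same complex to limit its activation, while XIAP binds and inhibits CASP9 and the executioner caspases. CASP9 starts the mitochondrial route, and MLKL permeabilizes the plasma membrane in necroptosis, a form of death that proceeds when caspase activity is blocked. TNF-α is known both for engaging this machinery and for activating NF-κB, a transcription factor that raises the expression of several of its inhibitors.

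*CFLAR*, *CASP10* and *CASP8* lie next to each other on the forward strand of chromosome 2 (hg38), within 171.6 kb. *CFLAR* spans chr2:201116104-201176687, *CASP10* chr2:201182881-201229406 and *CASP8* chr2:201233443-201287711. The gap between *CFLAR* and *CASP10* is 6193 bases, and that between *CASP10* and *CASP8* is 4036 bases. The other members are on separate chromosomes: *FADD* at chr11:70203163-70207390 (forward strand), *XIAP* at chrX:123859724-123913979 (forward), *CASP9* at chr1:15490832-15526534 (reverse), *CASP6* at chr4:109688622-109703583 (reverse) and *MLKL* at chr16:74671855-74700960 (reverse). No member shared an expressed exon on its own strand with another gene, since the one overlapping annotation on the strand of *CFLAR* (445 bases of ENSG00000234431) had 0 read pairs in all 12 libraries.

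To set *CFLAR*, which responded to TNF-α, beside its neighbor *CASP8*, which did not pass the test, their promoter windows are shown, which run from 250 bases before to 50 bases after an annotated start (RefSeq, GRCh38.p14). The windows are the first of *CFLAR*, at chr2:201118466-201118765, and the first of *CASP8*, at chr2:201233213-201233512, both on the forward strand. Capitals mark a match to the κB motif, the sequence class to which NF-κB binds.
CFLAR: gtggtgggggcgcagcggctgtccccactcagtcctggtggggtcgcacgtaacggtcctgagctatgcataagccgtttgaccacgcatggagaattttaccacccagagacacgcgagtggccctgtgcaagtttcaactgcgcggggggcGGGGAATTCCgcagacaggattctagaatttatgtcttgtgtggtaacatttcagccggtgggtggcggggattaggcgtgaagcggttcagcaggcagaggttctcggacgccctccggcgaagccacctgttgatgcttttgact
CASP8: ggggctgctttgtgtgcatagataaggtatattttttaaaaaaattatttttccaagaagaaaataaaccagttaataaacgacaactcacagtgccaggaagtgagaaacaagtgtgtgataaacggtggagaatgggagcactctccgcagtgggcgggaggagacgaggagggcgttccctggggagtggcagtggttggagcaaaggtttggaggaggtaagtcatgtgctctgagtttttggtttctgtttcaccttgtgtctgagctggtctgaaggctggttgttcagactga
The table of promoters held 15 windows for 7 of the 8 members, and *CASP10* was not among them. The κB motif was searched on both strands as 10 bases and matched in 1 of the 15 windows, at positions -97 to -88 of the *CFLAR* start shown above. Among all 35116 windows of the same length, 5.91% held a match, and among genes with 4 windows, as *CFLAR* has, 20.7% held one in at least 1 window. A match describes the letters in the window, and no binding was measured.

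Library totals ran from 22829189 to 31895061 read pairs on genes, so that 3 counts came to 0.0941 to 0.131 CPM of these unscaled totals, a limit that covers counting error only. All other CPM values were scaled to the TMM library size. The lowest count of any member in any library was 66 (*CASP6*). *NFKBIA* and *NFKB2*, targets of NF-κB used to check the treatment, rose in both cell types, with log2 fold changes of 3.91 and 3.85 in promyelocytes and 5.51 and 4.87 in granulocytes. All 6 promyelocyte markers tested were lower in granulocytes with vehicle than in promyelocytes with vehicle (summed level 2247 to 2465 against 7782 to 8620 CPM), and all 7 granulocyte markers were higher (3820 to 3977 against 152.5 to 159.6 CPM). Of the markers of other cells, the macrophage gene *MARCO* and the lymphoid gene *MS4A1* were at 0 in all libraries, but others were not. The 4 lymphoid markers summed to 5.555 to 5.923 CPM in promyelocytes with vehicle and 12.66 to 15.13 CPM in granulocytes with vehicle. Of the 3 lymphoid markers tested, 2 were higher in granulocytes. The summed level of the 5 macrophage markers was 49.1 to 51.3 CPM in granulocytes with vehicle and 30.1 to 33.8 CPM with TNF-α. Nearly all of it was *CSF1R*, at means of 49.7 and 32.2 CPM. The part of these markers in the results was not tested.

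In promyelocytes, TNF-α raised 1 of the 8 members, *CFLAR*, by 2.32-fold, and the other 7 did not pass the test. In granulocytes it raised *CFLAR* by 2.39-fold, *FADD* by 1.18-fold and *XIAP* by 1.10-fold, and lowered *CASP6* to 0.751 of its vehicle level. The comparison asks how a short exposure to TNF-α changes the transcripts of the machinery that the cytokine can engage. A gene was called when its adjusted p was under 0.05 in edgeR's quasi-likelihood test with Benjamini-Hochberg adjustment over all genes tested. The 1 member of 8 called in promyelocytes (12.5%) stood beside 14.8% of the 16250 genes tested, and the 4 of 8 in granulocytes (50%) beside 49.2% of 16944. Both shares were thus near those of all genes. The 1 increase in promyelocytes stood beside 8.15% of all genes called higher, and the 3 increases in granulocytes (37.5%) beside 24.4%. None fell in promyelocytes, where 6.65% of all genes did. The 1 decrease in granulocytes (12.5%) stood beside 24.8% called lower. The members' median log2 fold change in promyelocytes was -0.08, where that of all genes tested was -0.01. In granulocytes these medians were -0.02 and 0.00.

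**Figure D1:**
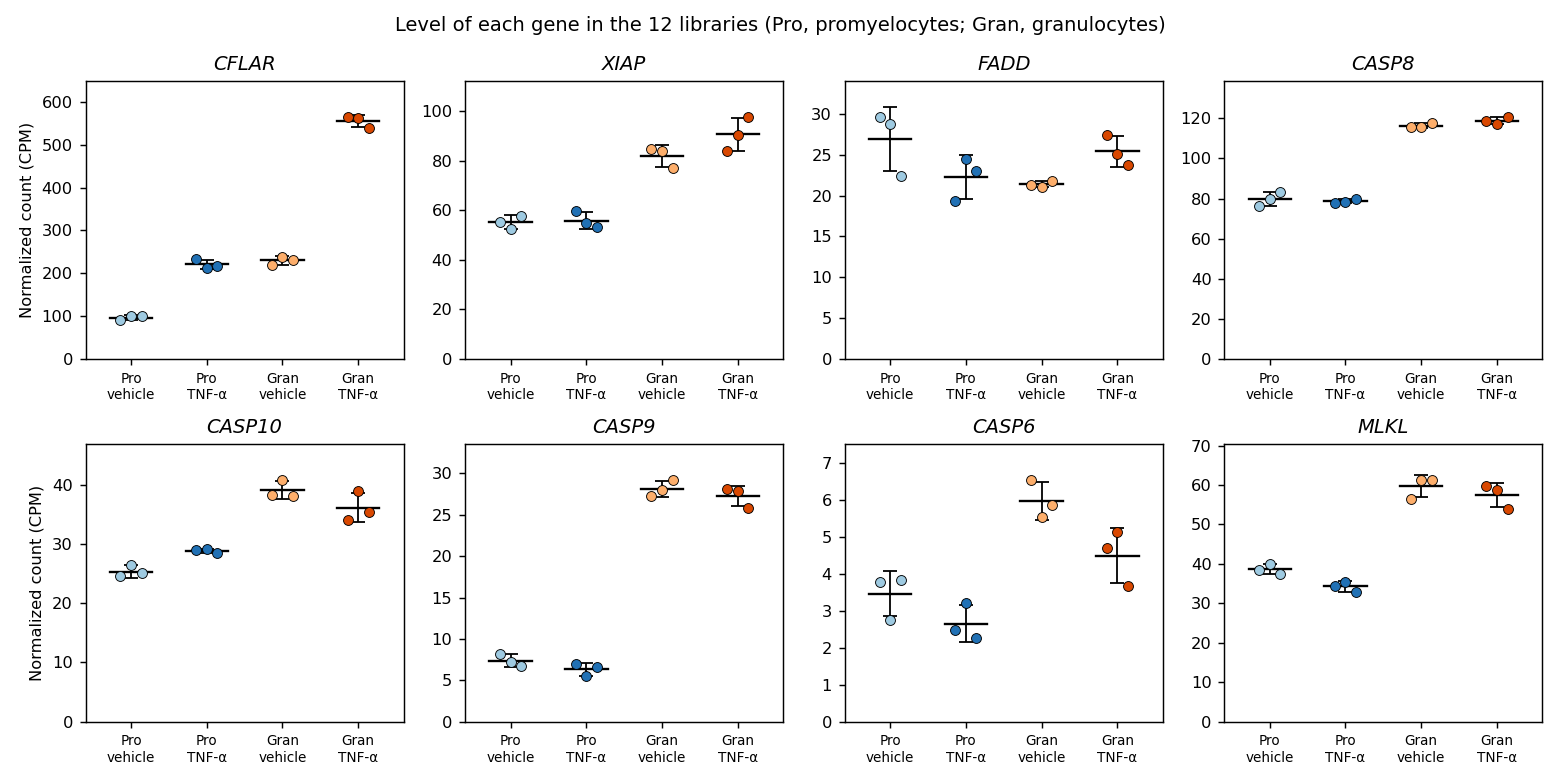
Normalized count (CPM, linear axes from 0) of the 8 genes in each of the 12 libraries, with 3 points per group, a horizontal line at the mean and error bars of 1 SD. *CFLAR* stood at 90.8 to 100.1 CPM in promyelocytes with vehicle and at 540 to 564 CPM in granulocytes with TNF-α, while *CASP8* differed between the cell types and lay at similar levels with and without TNF-α.

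*FADD* (ENSG00000168040) encodes the adaptor that links death receptors to the initiator caspases. In promyelocytes its normalized count was 29.6, 28.8 and 22.4 CPM in the vehicle libraries and 19.3, 24.4 and 23.0 CPM with TNF-α. Vehicle replicate 3 lay below 2 of the 3 TNF-α libraries, so the groups overlapped. The means were 26.9 ± 3.92 and 22.3 ± 2.68 CPM (SD, n = 3), a log2 fold change of -0.25 (SE 0.101) that did not pass the test (edgeR adjusted p = 0.111). Without vehicle replicate 3 it was -0.36 (edgeR adjusted p = 0.0124), the 1 fit that passed of the 6 that left out a library. Over these 6 fits it ran from -0.36 to -0.16, with edgeR adjusted p up to 0.358.

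In granulocytes *FADD* moved the other way. Its level was 21.3, 21.1 and 21.8 CPM with vehicle and 27.4, 25.1 and 23.7 CPM with TNF-α, and all 3 TNF-α libraries exceeded all 3 vehicle libraries. It rose by 0.24 on the log2 scale (SE 0.0719, edgeR adjusted p = 0.00643), from 21.4 ± 0.368 to 25.4 ± 1.87 CPM. The call was lost without TNF-α replicate 1 (adjusted p = 0.051) and when trends of the counts with GC and gene length were removed per library (0.09, edgeR adjusted p = 0.242). *FADD* had the highest GC content of the 8 members, 58.6% over its exons.

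*CASP8* (ENSG00000064012), the initiator caspase of the receptor complex, was the flattest of the members. Promyelocyte libraries held 76.3, 79.7 and 83.5 CPM with vehicle and 77.9, 78.1 and 79.8 CPM with TNF-α, the latter all within the range of the former. Granulocyte libraries held 115.6, 115.8 and 117.6 CPM with vehicle and 118.9, 117.1 and 120.5 CPM with TNF-α. The log2 fold change was 0.00 in promyelocytes (95% interval -0.13 to 0.13, edgeR adjusted p = 0.992) and 0.02 in granulocytes (-0.08 to 0.11, edgeR adjusted p = 0.806).

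*CASP10* (ENSG00000003400), the second initiator caspase recruited by FADD, had 24.5, 26.5 and 25.0 CPM in promyelocytes with vehicle and 28.9, 29.1 and 28.4 CPM with TNF-α. The 2 groups did not overlap, as was the case for 30.9% of all genes tested. Its log2 fold change of 0.21 (SE 0.0721) stayed above the threshold (edgeR adjusted p = 0.0589). With the GC and length trends removed it was 0.20, and it passed (edgeR adjusted p = 0.0292). In granulocytes *CASP10* stood at 38.3, 40.8 and 38.0 CPM with vehicle and 34.1, 38.8 and 35.3 CPM with TNF-α. TNF-α replicate 2 lay inside the range of the vehicle libraries, and the log2 fold change of -0.12 (SE 0.0634) did not pass (edgeR adjusted p = 0.105). It passed without that replicate (-0.18, adjusted p = 0.0449) and with the GC and length trends removed (-0.14, adjusted p = 0.0446). Of the 6 fits that left out a library, only that 1 passed, and the others reached -0.08 (edgeR adjusted p up to 0.366).

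*CASP9* (ENSG00000132906) encodes the initiator caspase of the mitochondrial route. Promyelocytes held 8.23, 7.17 and 6.70 CPM with vehicle and 6.92, 5.47 and 6.56 CPM with TNF-α (log2 fold change -0.20, SE 0.13, edgeR adjusted p = 0.359). Granulocytes held 27.2, 27.98 and 29.2 CPM with vehicle and 28.1, 27.9 and 25.9 CPM with TNF-α (-0.06, SE 0.067, edgeR adjusted p = 0.505). In both cell types the vehicle and TNF-α libraries overlapped.

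*CFLAR* (ENSG00000003402), the gene of the caspase-8 inhibitor c-FLIP, had the largest response. In promyelocytes its raw counts were 2780, 2699 and 2899 with vehicle and 6186, 5975 and 6854 with TNF-α, or 90.8, 99.3 and 100.1 against 232.8, 213.5 and 216 CPM. The TNF-α libraries lay far above the vehicle libraries, at 220.8 ± 10.5 against 96.8 ± 5.13 CPM (SD, n = 3). This was a log2 fold change of 1.21 (SE 0.0631, edgeR adjusted p = 1.37e-11), and 1.61% of the genes tested had a higher one. In granulocytes the counts were 5708, 7212 and 6897 with vehicle and 12474, 15716 and 11929 with TNF-α, or 219.7, 238.8 and 231.3 against 564, 563 and 539.5 CPM. Again no library of one group came near the other, with 555.5 ± 13.9 against 229.9 ± 9.60 CPM. The log2 fold change was 1.26 (SE 0.05, edgeR adjusted p = 2.61e-22), with 4.37% of genes above it.

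The order of the *CFLAR* levels was promyelocytes with vehicle, then promyelocytes with TNF-α and granulocytes with vehicle, which overlapped, and then granulocytes with TNF-α. *CFLAR* was the only member called higher in both cell types, which 6.19% of 15393 genes with both tests were. Its call held in every alternative setting and with each library left out. The counts are summed over all isoforms, and long and short c-FLIP transcripts cannot be told apart.

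*XIAP* (ENSG00000101966), the inhibitor of CASP9 and the executioner caspases, stood at 55.4, 52.3 and 57.9 CPM in promyelocytes with vehicle and 59.6, 54.9 and 53.1 CPM with TNF-α, a log2 fold change of 0.04 (95% interval -0.10 to 0.18, edgeR adjusted p = 0.747). Granulocytes held 84.9, 84.1 and 77.0 CPM with vehicle and 84.2, 90.5 and 97.6 CPM with TNF-α. The lowest TNF-α library lay inside the vehicle range, so the groups overlapped although the gene was called. The log2 fold change was 0.13 (SE 0.0563, edgeR adjusted p = 0.0488), and the call was kept in 1 of the 6 fits that left out a library. Of its near copies, the pseudogene *XIAPP3* held 4 to 16 counts per library and *BIRC8* held 0. Whether reads of such copies were counted on *XIAP* was not tested.

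*CASP6* (ENSG00000138794), the executioner caspase of the group, had the lowest CPM of the members in every group. Per kilobase of exon, *CASP9* was lower in promyelocytes. In granulocytes it had 6.54, 5.53 and 5.87 CPM with vehicle and 4.70, 5.12 and 3.66 CPM with TNF-α, with every TNF-α library below every vehicle library. It fell by 0.41 on the log2 scale (SE 0.142, edgeR adjusted p = 0.0153). The call was lost without vehicle replicate 1 (-0.35, adjusted p = 0.0727), without TNF-α replicate 3 (-0.28, adjusted p = 0.107) and in DESeq2 (-0.41, adjusted p = 0.0742). Promyelocyte libraries held 3.79, 2.76 and 3.83 CPM with vehicle and 2.48, 3.22 and 2.27 CPM with TNF-α. These groups overlapped, and the log2 fold change of -0.36 (SE 0.194) did not pass (edgeR adjusted p = 0.245). Being called lower in granulocytes and not called in promyelocytes, as *CASP6* was, applied to 20.4% of the 15393 genes with both tests.

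*MLKL* (ENSG00000168404), the effector of necroptosis, was at 38.6, 40.1 and 37.5 CPM in promyelocytes with vehicle and at 34.5, 35.5 and 32.9 CPM with TNF-α. The groups did not overlap, but the log2 fold change of -0.15 (SE 0.0664) did not pass the test (edgeR adjusted p = 0.141). In granulocytes the level was 56.4, 61.3 and 61.3 CPM with vehicle and 59.8, 58.7 and 54.0 CPM with TNF-α, with overlapping groups (-0.07, SE 0.0567, edgeR adjusted p = 0.339). *CASP10*, *CFLAR* and *MLKL* were the 3 members of 8 whose promyelocyte groups did not overlap, beside 30.9% of all genes tested. In granulocytes these were *CASP6*, *CFLAR* and *FADD*, where 55.1% of all genes tested had groups that did not overlap.

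**Figure D2:**
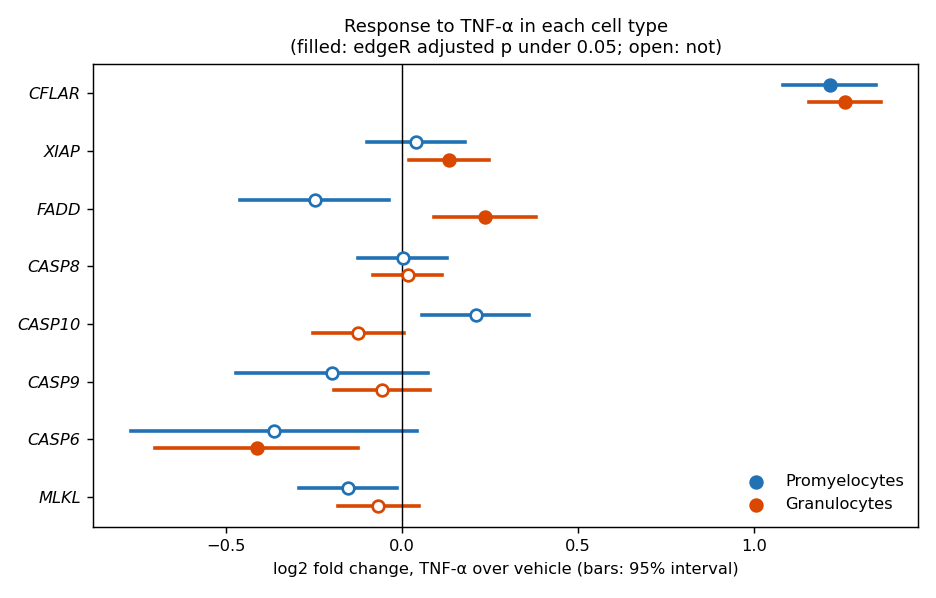
Log2 fold change of TNF-α over vehicle for the 8 genes, with 95% intervals, in promyelocytes (blue) and granulocytes (orange). Filled points passed an edgeR adjusted p of 0.05. *CFLAR* stands at 1.21 and 1.26, and all other points lie between -0.41 and 0.24. The intervals are not adjusted for the number of genes, and those of *CASP10*, *FADD* and *MLKL* in promyelocytes leave out 0 although the adjusted test was not passed.

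An interaction term over the 12 libraries tested whether the cell types responded differently. It passed for *FADD* and *CASP10*, 2 of 8 members (25%), beside 24% of the 18124 genes tested. One member was higher and 1 lower in this term (12.5% each), beside 14.1% and 9.88% of all genes. For *FADD*, the response in granulocytes exceeded that in promyelocytes by 0.52 on the log2 scale (SE 0.134, edgeR adjusted p = 0.00473), and the difference passed with each of the 12 libraries left out in turn (0.43 to 0.64). With the GC and length trends removed it was 0.32 (edgeR adjusted p = 0.0276). For *CASP10*, the granulocyte response was lower by 0.30 (interaction -0.30, SE 0.0936, edgeR adjusted p = 0.0215), and this was lost without promyelocyte vehicle replicate 1, granulocyte vehicle replicate 2 or granulocyte TNF-α replicate 1 (adjusted p = 0.0518, 0.0695 and 0.0667). The *CFLAR* responses differed by 0.08, with a 95% interval of -0.08 to 0.24 (edgeR adjusted p = 0.493). For *CASP6*, called in granulocytes and not in promyelocytes, the difference was -0.01, with a wide interval of -0.52 to 0.50 (edgeR adjusted p = 0.983). For *XIAP* it was 0.13 (-0.06 to 0.32, edgeR adjusted p = 0.327).

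The balance of an inhibitor to its caspase was described within each library as a ratio of raw counts, which needs no scaling between libraries. The *CFLAR* to *CASP8* ratio was 1.19, 1.25 and 1.20 in promyelocytes with vehicle and 2.99, 2.73 and 2.71 with TNF-α. In granulocytes it was 1.90, 2.06 and 1.97 with vehicle and 4.74, 4.81 and 4.48 with TNF-α. Both increases kept the groups apart, with means of 1.21 ± 0.0299 and 2.81 ± 0.156 in promyelocytes and 1.98 ± 0.0810 and 4.68 ± 0.175 in granulocytes (SD, n = 3). On the log2 scale they came to 1.21 and 1.24. An exact two-sided permutation test gave p = 0.1 in each cell type, the smallest value that 3 libraries against 3 can give.

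The *XIAP* to *CASP9* ratio, by contrast, overlapped between vehicle and TNF-α. It went from 7.55 ± 0.982 to 8.91 ± 1.00 in promyelocytes and from 2.92 ± 0.252 to 3.34 ± 0.396 in granulocytes (SD, n = 3), with exact permutation p = 0.3 in both. The 4 ratio tests formed one family, and none could pass a threshold of 0.05. The ratios compare numbers of read pairs on transcripts of different length and say nothing of protein amounts.

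**Figure D3:**
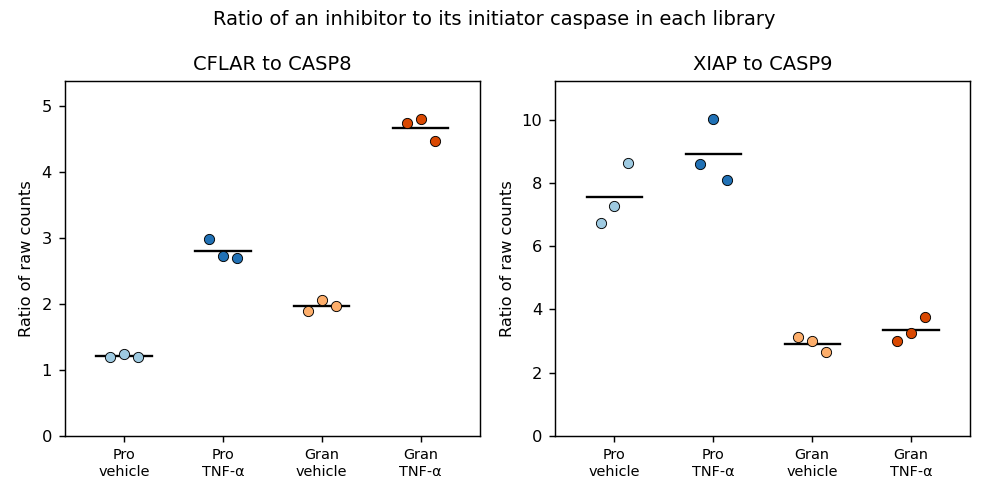
Ratio of raw counts of *CFLAR* to *CASP8* (left) and of *XIAP* to *CASP9* (right) in each library, on linear axes from 0, with a line at each group mean. The *CFLAR* to *CASP8* ratio was higher in all 3 TNF-α libraries than in all 3 vehicle libraries of both cell types, and the *XIAP* to *CASP9* ratio overlapped between them.

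Per kilobase of exon, which allows levels of different genes to be set beside each other, *FADD* and *CASP8* led in promyelocytes with vehicle, at 14.6 ± 2.13 and 11.02 ± 0.497 CPM per kb. *CFLAR* had rank 5 there with 4.29 ± 0.228 CPM per kb, and *CASP6* and *CASP9* were the lowest with 1.78 ± 0.313 and 1.399 ± 0.149. *CFLAR* reached the third rank with TNF-α, at 9.80 ± 0.465 CPM per kb. In granulocytes with vehicle *CASP8* led with 16.1 ± 0.156 CPM per kb, and *CFLAR* was the fourth with 10.2 ± 0.426. After TNF-α *CFLAR* led with 24.7 ± 0.616 CPM per kb, ahead of *CASP8* with 16.4 ± 0.235. These levels divide by the union of all annotated exons (22529 bases for *CFLAR*, 1841 for *FADD*), which lowers the value of a gene whose cells use a short isoform.

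Of the summed level per kilobase of the 8 genes, *CFLAR* made up 8.71% ± 0.654 in promyelocytes with vehicle and 19.1% ± 1.19 with TNF-α, and 14.4% ± 0.449 in granulocytes with vehicle and 28.3% ± 0.127 after TNF-α (SD over 3 libraries). Without *CFLAR*, the sum of the other 7 was 43.2 to 46.3 CPM per kb in promyelocytes with vehicle and 40.3 to 42.9 with TNF-α. In granulocytes it was 60.4 to 61.0 with vehicle and 61.3 to 63.4 with TNF-α. The ranges did not overlap in either cell type, with the sum lower after TNF-α in promyelocytes and higher in granulocytes. *FADD*, the member with the shortest exon length, weighs heavily in this sum and moved the same way. It went from 14.6 to 12.1 CPM per kb in promyelocytes and from 11.6 to 13.8 in granulocytes. No sum without *FADD* was made, so how much of each shift came from *FADD* was not tested.

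The vehicle levels were then compared between the cell types. All 8 members differed, beside 72% of the 18124 genes tested. Of them 7 were higher in granulocytes (87.5%, beside 35.7% of all genes) and *FADD* was lower (12.5%, beside 36.3%). The median log2 difference of the members was 0.62, against 0.01 over all genes. In bulk RNA, fewer cells of a type and less RNA per cell cannot be told apart. *CASP9* differed most, with 7.37 ± 0.786 CPM in promyelocytes and 28.1 ± 1.01 CPM in granulocytes (log2 difference 1.93, SE 0.0917, edgeR adjusted p = 1.71e-16). *CFLAR* followed, 2.38-fold higher in granulocytes (1.25, SE 0.0558, edgeR adjusted p = 4.49e-17).

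*CASP6*, *CASP10*, *MLKL*, *XIAP* and *CASP8* were higher in granulocytes by 0.78, 0.62, 0.62, 0.57 and 0.54 on the log2 scale, with edgeR adjusted p-values of at most 0.000125. *FADD* was lower by 0.33 (log2 difference -0.33, SE 0.0941, edgeR adjusted p = 0.00259). Its granulocyte vehicle libraries, at 21.1 to 21.8 CPM, lay below all 3 promyelocyte vehicle libraries, of which replicate 3 was at 22.4 CPM. Groups did not overlap for any member, beside 74.4% of all genes. These calls were kept with each library left out in turn.

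Other genes of the pathway, in lists covering 42 genes, were set beside the members. In promyelocytes 17 of the 36 tested passed (13 higher, 4 lower), and in granulocytes 23 of 35 (19 higher, 4 lower). These are shares of 47.2% and 65.7%, beside 14.8% and 49.2% of all genes tested. Of all genes, 8.15% were called higher and 6.65% lower in promyelocytes, and 24.4% higher and 24.8% lower in granulocytes. The median log2 fold changes of the pathway genes tested were 0.09 in promyelocytes and 0.18 in granulocytes. The lists were chosen with earlier results of these data known, so these counts are a description. TNF-α treatment altered the receptors in both directions. *FAS*, the receptor of Fas ligand, rose by 2.26 on the log2 scale in promyelocytes and 2.24 in granulocytes, and the TRAIL receptor *TNFRSF10B* rose by 0.21 and 0.81. The TNF-α receptor *TNFRSF1A* fell by 0.48 and 0.41, and the other TRAIL receptor *TNFRSF10A* fell by 0.26 in promyelocytes only by this test (granulocytes -0.14, edgeR adjusted p = 0.11, difference between the responses not called). Of the ligands, *TNF* rose 3.76-fold and 5.67-fold and *TNFSF10*, which encodes TRAIL, 3.05-fold and 4.23-fold. Lymphotoxin alpha, *LTA*, rose by 2.03 (SE 0.493) in promyelocytes and was not tested in granulocytes. Its promyelocyte counts were few, at 4, 8 and 2 with vehicle and 20, 19 and 18 with TNF-α.

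Among the 8 genes of the receptor complex, 3 passed in promyelocytes (37.5%, beside 14.8% of all genes) and 4 in granulocytes (50%, near the 49.2% of all genes). The deubiquitinases *TNFAIP3* and *CYLD* rose by 3.63 and 1.597 in promyelocytes and by 5.08 and 0.89 in granulocytes. *TRAF2*, an adaptor of the TNF receptor complex, rose by 0.85 in granulocytes and was at 0.03 in promyelocytes (edgeR adjusted p = 0.835). *RBCK1*, a subunit of the linear ubiquitin ligase, fell by 0.28 in promyelocytes (granulocytes -0.13, edgeR adjusted p = 0.0578). Of the other caspases tested, 1 of 5 passed in promyelocytes (20%), *CASP2*, which fell by 0.23. In granulocytes 2 of 6 passed (33.3%), among them the inflammatory caspase *CASP1*, which fell by 0.23. The difference between the responses was not called for *RBCK1*, *CASP2* or *CASP1* (edgeR adjusted p = 0.18, 0.105 and 0.0563).

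The inhibitor of apoptosis genes other than *XIAP* held the largest response of all lists. *BIRC3*, which encodes the ubiquitin ligase cIAP2, rose by 5.58 in promyelocytes and 8.31 in granulocytes, far above the 0.04 and 0.13 of *XIAP*, and its relative *BIRC2* rose by 0.51 and 0.35. *NAIP*, a sensor of bacterial proteins, fell by 1.17 in granulocytes. The BH3-only gene *BID*, whose product carries the signal of CASP8 to mitochondria, rose by 0.48 and 1.56. *DIABLO*, which encodes an antagonist of XIAP, rose by 0.51 in promyelocytes, and the related antagonist *HTRA2* rose by 0.61 in granulocytes. *CYCS*, the cytochrome c gene, rose by 0.23 and 0.39. For necroptosis, *TICAM1*, an adaptor of Toll-like receptors, rose by 1.87 and 2.43, and *RIPK3*, the kinase that phosphorylates MLKL, and *PGAM5*, a mitochondrial phosphatase, rose by 0.48 and 0.39 in granulocytes. All calls in this and the preceding paragraph were at edgeR adjusted p of 0.05 or less. Among the promyelocyte calls, that of *TNFRSF10B* was lost in 8 of 13 alternative fits, those of *RBCK1* and *CYCS* in 4 each, that of *TNFRSF10A* without vehicle replicate 2 or 3, that of *CASP2* without TNF-α replicate 2 and that of *LTA* in DESeq2.

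The position of *CFLAR* beside 2 genes that did not pass was examined within 500 kb of the 3 genes. Of 18 other genes tested there, 2 rose in promyelocytes (*HYCC2* by 0.52, *RNU7-45P* by 1.22), beside 8.15% of all genes called higher. In granulocytes 4 rose and 3 fell, beside 24.4% of all genes called higher and 24.8% called lower. *HYCC2*, whose start lies 44.4 kb from that of *CFLAR*, and *RNU7-45P*, which lies within *CFLAR*, were higher in both cell types. These genes were named after their values had been seen.

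**Figure D4:**
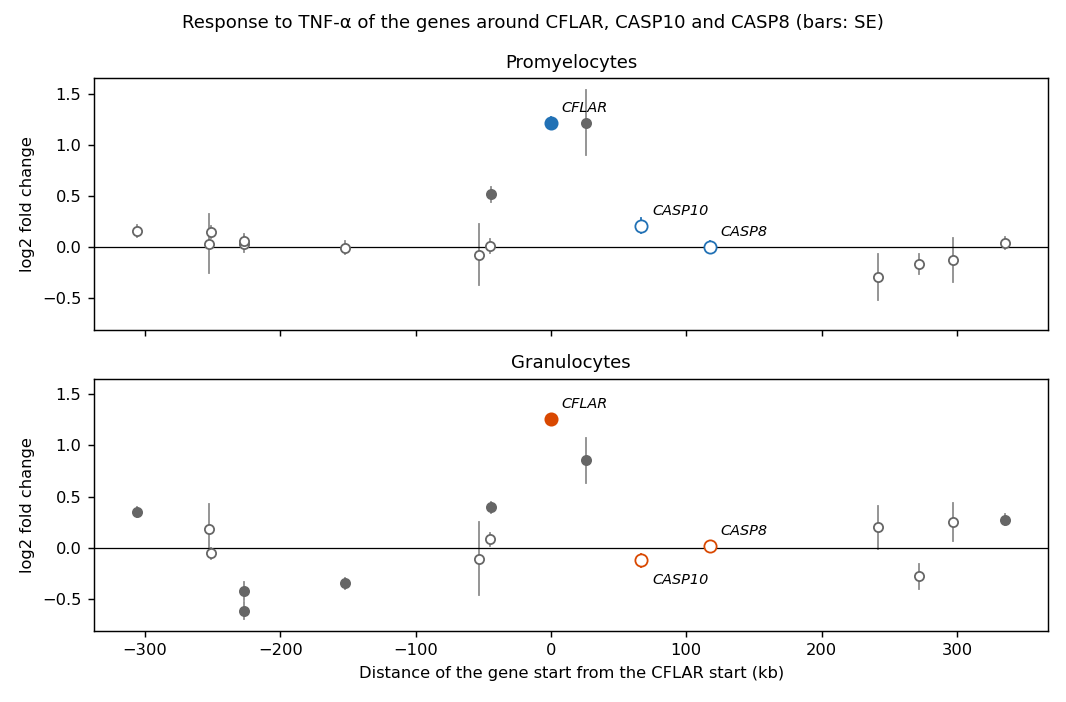
Log2 fold change of TNF-α over vehicle (bars, SE) of *CFLAR*, *CASP10*, *CASP8* and the genes tested whose start lies within 400 kb of the *CFLAR* start, against the distance of each gene's start from the *CFLAR* start in kb. Filled points passed an edgeR adjusted p of 0.05, colored points are the 3 members, and the filled grey point beside *CFLAR* is *RNU7-45P*, at 1.22 in promyelocytes and 0.85 in granulocytes.

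*RNU7-45P* is annotated as a 63-base copy of a small nuclear RNA on the same strand as *CFLAR*, at chr2:201141904-201141966, outside the exons of *CFLAR*. It held 14, 18 and 14 counts in promyelocytes with vehicle and 29, 33 and 44 with TNF-α. In granulocytes the counts were 37, 48 and 40 with vehicle and 57, 78 and 57 with TNF-α. The groups did not overlap in either cell type, and the log2 fold changes were 1.22 (SE 0.32, edgeR adjusted p = 0.0126) and 0.85 (SE 0.219, edgeR adjusted p = 0.00134). The promyelocyte call was lost without vehicle replicate 1 (adjusted p = 0.0565) or TNF-α replicate 3 (0.0596). Reads of this copy and reads of unspliced *CFLAR* RNA cannot be told apart in these counts. *RNU6-122P*, placed in the same way within *XIAP*, did not pass (-0.04 and 0.37).

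For each member, the genes with the most similar pattern were found by Pearson's r of log2 CPM over the 12 libraries, after the mean of each cell type had been removed, among 11773 genes. These correlations are descriptions, since the 12 libraries share 1 treatment in both cell types. For *CFLAR* they were *NABP1* and *IFIH1* (r = 0.997 for both), and 598 genes reached 0.9. No gene reached 0.9 for *CASP8*, whose nearest were *TBC1D3H* (0.839) and *NPIPB9* (0.812). For *XIAP* 8 genes were at 0.9 or more, among them *ERO1B* (0.943), and for *FADD* the nearest were *RPS27P4* (0.945) and *MYDGF* (0.937), with 21. *CASP6* was nearest to *ZNF407-AS1* (0.936) and ENSG00000260793 (0.932), *MLKL* to *ADGRE1* (0.939) and *RBFA* (0.905), *CASP9* to *ARAP3* (0.929) and *DAP* (0.928), and *CASP10* to *ING3* (0.918) and *ALOX12-AS1* (0.91).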

How the data were processed

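RNA of 12 libraries was sequenced by the authors as paired ends, with tools named in the submitters' processing notes as FastQC 0.11.4, STAR 2.5.3a, featureCounts 1.5.2 and DESeq2 1.16.1. The authors deposited raw counts of read pairs per gene (hg38, GENCODE), counted on the reverse strand from primary alignments, keeping pairs whose 2 ends both mapped, chimeric ones excluded. Gene symbols were matched for 57532 of 58288 identifiers. Groups were taken from the sample titles. TNF-α and vehicle were compared within 1 cell type at a time in edgeR 4.0.16 (R 4.3.3): TMM, filterByExpr (minimum count 10, minimum total 15), quasi-likelihood test and Benjamini-Hochberg adjustment at 0.05. Interaction and vehicle levels used all 12 libraries. CPM values share 1 TMM scale over the 12 libraries. The procedure was tested on simulated data. All 8 members were named, plus up to 3 called genes with the largest change per pathway list and cell type, and the 2 genes most like each member. A few genes that this rule names are not reported here. The members and lists were chosen with earlier results of these data known. Same-numbered libraries did not deviate together (r from -0.146 to -0.0129), so replicate numbers were not used as pairs. Alternatives were DESeq2's size factors, DESeq2 1.42.0, no filter, a replicate block, removal of GC and length trends, a threshold of 0.01, 1 fit of 12 libraries and leaving out each library.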

Additional observations from a re-analysis of the deposited data

Results flagged for a closer look

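The response to TNF-α differed between the cell types for 2 of the 8 genes, as tested by the interaction term. For *FADD* the granulocyte response exceeded the promyelocyte response by 0.52 on the log2 scale (95% interval 0.25 to 0.80, edgeR adjusted p = 0.00473), with the promyelocyte response at -0.25 and the granulocyte response at 0.24. For *CASP10* the difference was -0.30 (-0.49 to -0.10, edgeR adjusted p = 0.0215), with responses of 0.21 in promyelocytes and -0.12 in granulocytes, neither of which passed its own test.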

How the results depend on the processing

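In promyelocytes 2 members rather than 1 were called without an expression filter (*FADD* added, -0.24, edgeR adjusted p = 0.0474), with GC and length trends removed (*CASP10* added) and with all 12 libraries in 1 fit (*FADD* added, -0.27, adjusted p = 0.0462), and 1 to 2 with each library left out. In granulocytes 2 members rather than 4 were called in DESeq2 and at a threshold of 0.01, and 2 to 4 with each library left out. There *CASP6* was lost without vehicle replicate 1 or TNF-α replicate 3, and *XIAP* was kept in only 1 of the 6 fits. *XIAP* was also lost without a filter (adjusted p = 0.0846), in DESeq2 (0.098) and in 1 fit of all libraries (0.0638). Of the interactions, 1 rather than 2 was called at a threshold of 0.01, and 1 to 2 with each library left out; that of *XIAP* was gained with GC and length trends removed (0.20, adjusted p = 0.0439). A replicate block was also fitted, although the numbers did not pair the libraries. In it 1 interaction rather than 2 was called (*CASP10*, -0.30, edgeR adjusted p = 0.0504), and *XIAP* in granulocytes was lost (0.13, adjusted p = 0.1). A block could not be fitted for the vehicle levels, since the numbers are nested in the cell types. No member reversed its direction past the threshold in any setting, and *CFLAR* kept its calls in all of them, at 1.16 to 1.25 in promyelocytes and 1.22 to 1.29 in granulocytes with each library left out. The precision is set by 3 libraries a group, most of all for *CASP6* with 66 to 175 counts.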
